A study of Mus musculus with 33 samples.

Results

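In one mouse line, which the labels call PHT, loss of Hri was added to a loss of Ptpmt1 restricted to cardiomyocytes. Here 2 libraries of the double mutant are set against 3 of the Ptpmt1 knockout. These 5 libraries were taken by their labelled genotype out of 33 in the whole series, and all 14965 genes that reached a value of 10 in at least 2 of the 9 PHT libraries were compared. The double carries a Ptpmt1 knockout restricted to cardiomyocytes together with an Hri knockout. The Ptpmt1 knockout carries the first of these alone. The other 4 libraries of the line are 2 labelled as a knockout of Hri alone, restricted to cardiomyocytes, and 2 labelled control, whose alleles are not given. Whether the Hri deletion of the double is also restricted to cardiomyocytes is not given, nor are the promoter that drove the deletion, the age of the animals or what PHT stands for. The material is labelled nuclear RNA of cardiomyocytes, sequenced after removal of ribosomal RNA.

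Ptpmt1 encodes a mitochondrial phosphatase whose product, phosphatidylglycerol, is the precursor of cardiolipin, a lipid that the respiratory chain needs. Hri, the product of Eif2ak1, is one of the kinases that phosphorylate the translation factor eIF2 alpha. That phosphorylation slows protein synthesis in general, favours translation of the transcription factor ATF4, and so starts the integrated stress response (ISR), in which genes for amino acid synthesis, amino acid uptake and tRNA charging are induced. In human cells a mitochondrial protein, DELE1, carries the signal of mitochondrial damage to HRI, and in red cell precursors Hri responds to a lack of haem.

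The libraries held between 10739569 and 19405261 reads in genes and between 17579 and 18703 genes with at least 1 read. Values are the authors' normalized counts, which are whole reads times a constant for each library, and they compare libraries but not genes of different length. Cardiomyocyte genes took 5.15% and 4.61% of the doubles' normalized counts, against 5.09%, 4.89% and 5.09% in the Ptpmt1 knockouts, so the labelled cell type was present in both groups. Markers of other cell types were present too. The fibroblast gene Col1a2 had 3970 and 4912 in the doubles, against 3848, 3736 and 3875 in the Ptpmt1 knockouts. The endothelial gene Tek had 2352 and 2486.5, against 2551, 2503 and 2565. The values therefore cannot place a change in cardiomyocytes alone. Y-linked genes and Xist gave a male pattern in 2 of 2 doubles, 1 of 3 Ptpmt1 knockouts (replicate 1), 2 of 2 Hri knockouts and 0 of 2 controls. The sex pattern therefore differs between the groups, and its part in the results was not tested beyond the values given beside them. Erythroid marker genes took 0.5004% and 0.890% of the doubles' counts, against 0.347%, 0.321% and 0.0727% in the Ptpmt1 knockouts, an exact two-sided permutation p of 0.1, which is the smallest that 2 against 3 libraries allow.

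Ptpmt1 itself was low in both groups. Its values were 76.7 and 78.1 in the doubles and 64.8, 41.7 and 40.0 in the Ptpmt1 knockouts, while the Hri knockouts had 245 and 284 and the controls 241 and 289. The log2 difference of the double from control was -1.76 ± 0.24 (SE), at an adjusted p of 0.0136 (limma on log2(value + 1), Benjamini-Hochberg over all genes, as for every adjusted p of the PHT line). Between the doubles and the Ptpmt1 knockouts the log2 difference was 0.69 (adjusted p = 0.321). Eif2ak1 had 476 and 545 in the doubles, 630.3, 619 and 517 in the Ptpmt1 knockouts, 416 and 389 in the Hri knockouts and 548 and 590.4 in the controls. Its log2 difference was -0.20 for the doubles against the Ptpmt1 knockouts (adjusted p = 0.672) and -0.50 for the Hri knockouts against control (adjusted p = 0.812), so neither difference was called. The values sum over whole genes and the deleted part of Eif2ak1 is not given, so they cannot show whether an exon is missing.

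What separated the double from the Ptpmt1 knockout was a block of ISR genes that stood high in the Ptpmt1 knockout and near the control level in the double. At an adjusted p under 0.05, 49 of 14965 genes were called, or 0.327%; 40 fell in the double (0.267%) and 9 rose (0.0601%). Of 67 genes listed for the ISR, 65 were tested, the exceptions being Fgf21 and Cbs, and 30 of the 65 fell while none rose. Their median log2 difference was -0.59, beside -0.01 over all genes tested, and 57 of 65 were negative. With 1 library left out at a time, between 19 and 30 ISR genes fell; the total called was 91 without the first double and 29 without replicate 2 of the Ptpmt1 knockout. The members fall by role into regulators, enzymes of amino acid and one-carbon synthesis, transporters and tRNA synthetases.

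**Figure D1:**
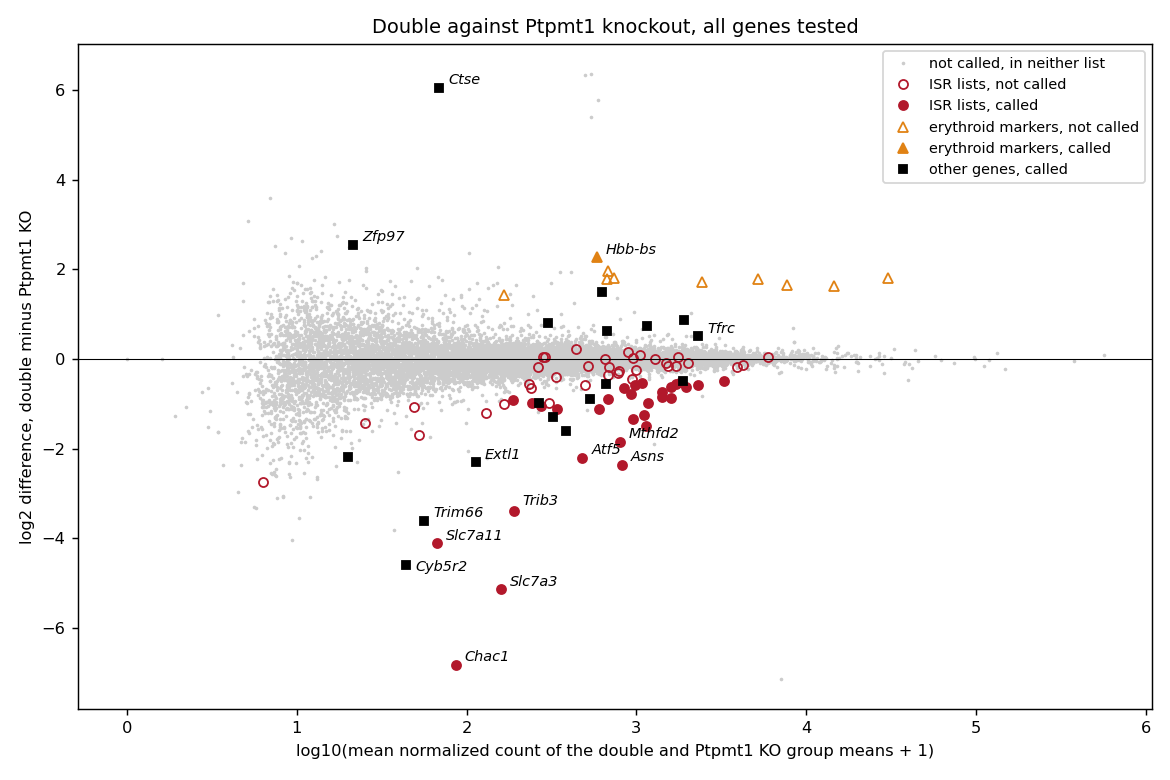
Each point is a gene tested; the horizontal axis is the log10 mean normalized count of the double and the Ptpmt1 knockout plus 1, and the vertical axis is the log2 difference, double minus Ptpmt1 knockout. Filled circles are the 30 ISR genes called, all below 0; filled squares and the filled triangle are the other called genes, and the uncalled grey points beyond 5 log2 units from 0 are 4 Y-linked genes and Xist.

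Among the regulators, 5 of 18 tested fell and the median log2 difference was -0.94. Atf4, the transcription factor at the head of the response, had 1051 and 1188 in the doubles, against 1744, 1964 and 2466 in the Ptpmt1 knockouts. The groups did not overlap, and the double fell by 0.87 ± 0.12 (SE) on the log2 scale (adjusted p = 0.00212). The Hri knockouts had 1114 and 1128 and the controls 1116 and 1119, so the Atf4 values of the doubles lay on either side of those of both groups. Against control, the log2 difference of Atf4 in the double was 0.00 with a 95% interval of -0.27 to 0.27.

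Atf5, a related factor whose targets include mitochondrial chaperones, had 162 and 175 in the doubles, against 643, 751 and 972 in the Ptpmt1 knockouts. It fell by 2.20 ± 0.17 (SE) log2 units (adjusted p = 1.42e-05), and its interval against control ran from -0.41 to 0.40. Trib3, a pseudokinase induced by ATF4, had 18.4 and 51.4 in the doubles, against 253, 332 and 437 in the Ptpmt1 knockouts, and fell by 3.39 ± 0.43 (SE) log2 units (adjusted p = 0.00113). Every double was below every Ptpmt1 knockout for both genes, although the 2 doubles of Trib3 were far apart. Sesn2, a sestrin that restrains mTORC1 signalling, had 222 and 206 in the doubles, against 401, 435 and 567 in the Ptpmt1 knockouts, and fell by 1.11 ± 0.15 (SE) log2 units (adjusted p = 0.00257).

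Chac1, an enzyme that degrades glutathione, gave the largest fitted fall of the 49 genes. Its 2 doubles held 1 and 0 reads, or normalized counts of 1.08 and 0, against 111, 176 and 221 in the Ptpmt1 knockouts. The log2 difference was -6.83 ± 0.55 (SE; adjusted p = 1.68e-05), a fitted value that depends on the added 1. From 568 reads in the Ptpmt1 knockouts and 1 read in the doubles, the ratio of knockout to double was 344, with an exact 95% counting interval of 61.4 to 1.36e+04. The Hri knockouts had 10.1 and 7.01, on 8 and 9 reads, and the controls 0.942 and 2.39, and all of these lay below the 3 Ptpmt1 knockouts.

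The other 13 regulators did not pass the test. Ddit3, which encodes the factor CHOP, had 109 and 107 in the doubles, against 191, 205 and 265 in the Ptpmt1 knockouts, with a log2 difference of -1.01 (adjusted p = 0.0779). Its groups did not overlap, which was also so, in this direction, for 1803 of all 14965 genes. Jdp2 (-1.21) and Cebpb (-1.07), both dimerizing transcription factors of the same superfamily, and Stc2 (-0.65), a secreted glycoprotein, had adjusted p-values of 0.157, 0.157 and 0.203. Gdf15, a hormone secreted under stress, had 7.57 and 16.2 in the doubles, against 16.2, 31.4 and 61.0 in the Ptpmt1 knockouts, and was not called (log2 difference -1.43, adjusted p = 0.659). Ppp1r15a, the inducible subunit of the phosphatase that resets eIF2 alpha, differed by 0.05 and its constitutive counterpart Ppp1r15b by -0.14, neither called.

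**Figure D2:**
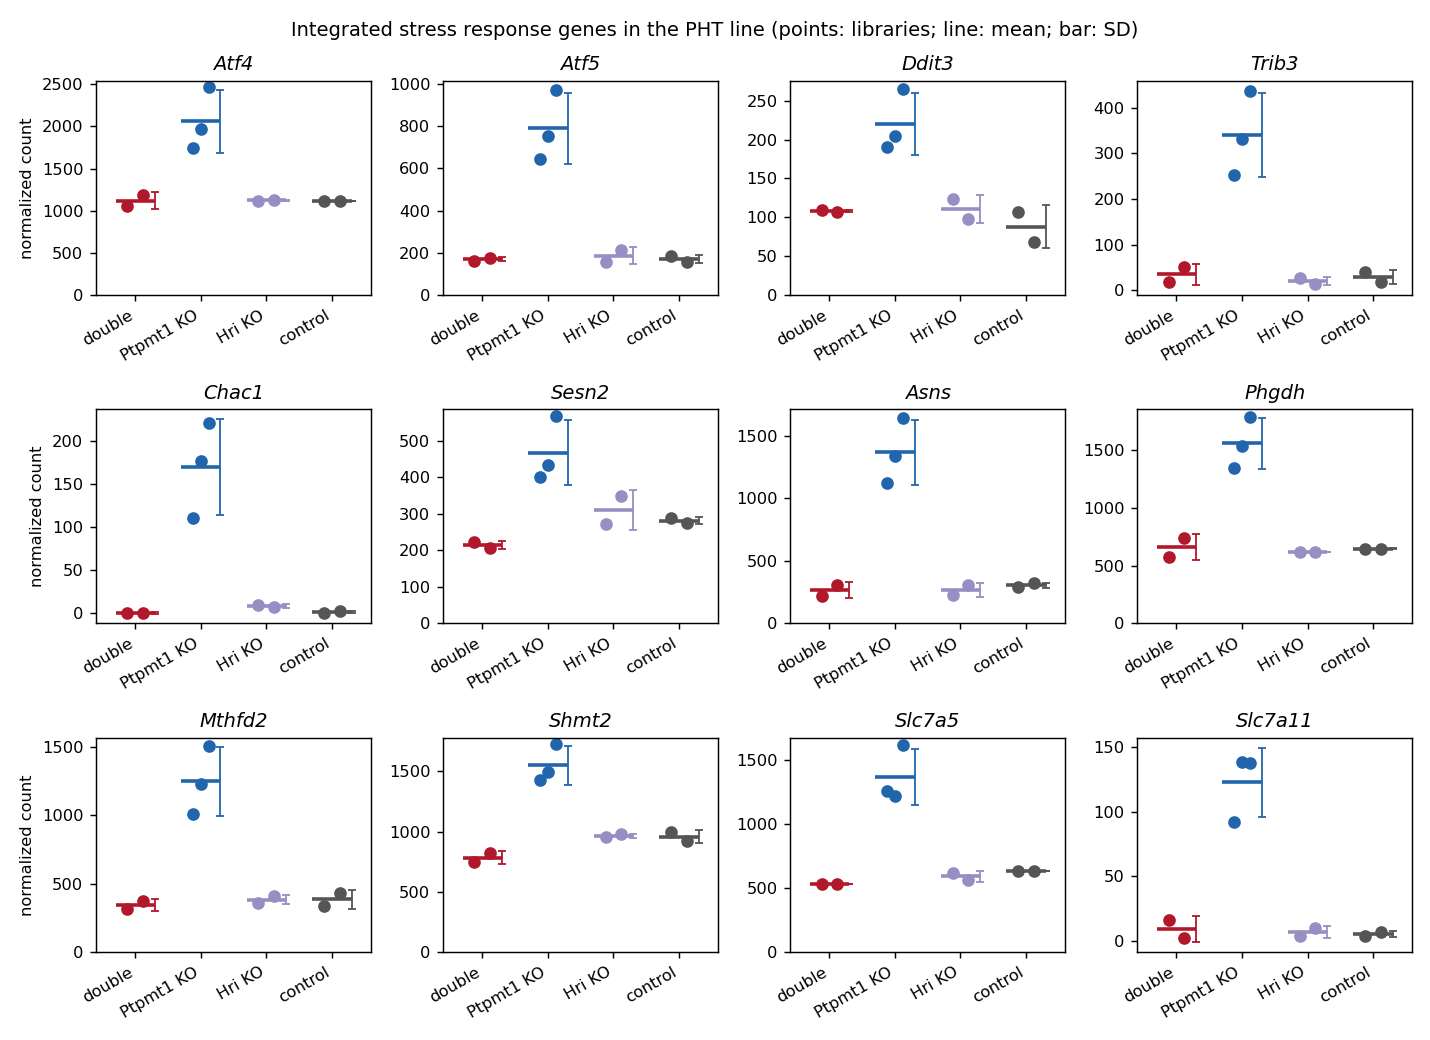
Normalized count of 12 ISR genes in each library (points), with the mean (line) and SD (bar) of each group; double 2 libraries, Ptpmt1 knockout 3, Hri knockout 2, control 2. In each of the 12 panels both doubles lie below all 3 Ptpmt1 knockouts, as for Asns with 223 and 310.5 against 1121 to 1638. Over all 14965 genes tested, 1803 had both doubles below all 3.

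Several of the genes that fell carry the composite element bound by ATF4 with C/EBP partners, and their promoters are shown because the genes moved together. The element was searched as TGATGNAA, and as its reverse complement TTNCATCA, in windows from 250 bases before to 50 bases after the RefSeq start site (GRCm38.p6). Of the 40 genes that fell, 34 had a window and 12 held the element, or 35.3%. The element was in the windows of 2.76% of the tested genes that had one (316 of 11442), of 4.51% of all 27025 genes with a window, and in 3.97% of all 32851 windows. None of the 6 genes with a window among those that rose held it. A match is a match of letters, not a measured site. The windows of 5 of the largest falls that held it are given 5′ to 3′ on the strand of the gene, with the element in capitals.
Chac1 (chr2:119350992-119351291, plus strand): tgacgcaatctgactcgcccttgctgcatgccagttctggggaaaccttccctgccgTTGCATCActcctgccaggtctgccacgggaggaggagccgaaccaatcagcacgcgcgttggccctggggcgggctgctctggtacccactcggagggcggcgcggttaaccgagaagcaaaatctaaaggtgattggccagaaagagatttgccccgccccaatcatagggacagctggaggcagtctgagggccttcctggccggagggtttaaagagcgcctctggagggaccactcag
Cyb5r2 (chr7:107757983-107758282, minus strand): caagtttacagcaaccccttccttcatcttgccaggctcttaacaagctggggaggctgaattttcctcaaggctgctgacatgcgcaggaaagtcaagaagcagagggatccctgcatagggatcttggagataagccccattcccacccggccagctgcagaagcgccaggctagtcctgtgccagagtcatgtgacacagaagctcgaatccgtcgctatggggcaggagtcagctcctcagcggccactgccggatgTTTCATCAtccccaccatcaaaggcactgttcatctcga
Slc7a11 (chr3:50443564-50443863, minus strand): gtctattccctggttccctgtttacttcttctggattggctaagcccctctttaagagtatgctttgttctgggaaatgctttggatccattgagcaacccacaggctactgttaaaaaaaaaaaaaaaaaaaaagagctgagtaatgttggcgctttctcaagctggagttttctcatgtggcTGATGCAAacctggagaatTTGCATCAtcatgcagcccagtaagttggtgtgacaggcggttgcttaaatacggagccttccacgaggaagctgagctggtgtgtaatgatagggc
Trib3 (chr2:152344011-152344310, minus strand): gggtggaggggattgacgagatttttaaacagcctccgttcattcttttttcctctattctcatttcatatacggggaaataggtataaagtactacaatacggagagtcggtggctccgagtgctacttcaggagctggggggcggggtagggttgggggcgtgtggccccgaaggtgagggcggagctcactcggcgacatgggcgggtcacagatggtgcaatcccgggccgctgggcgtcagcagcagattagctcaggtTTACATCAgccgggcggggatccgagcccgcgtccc
Asns (chr6:7693160-7693459, minus strand): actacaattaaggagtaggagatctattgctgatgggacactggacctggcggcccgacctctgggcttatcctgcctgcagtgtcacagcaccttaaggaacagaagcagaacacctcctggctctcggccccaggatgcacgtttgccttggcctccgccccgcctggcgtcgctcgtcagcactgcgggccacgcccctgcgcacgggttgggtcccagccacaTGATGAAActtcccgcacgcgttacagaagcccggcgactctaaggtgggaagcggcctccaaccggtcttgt

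The first base of the element lay at -193 from the start site in Chac1, at 12 in Cyb5r2, at 15 in Trib3 and at -23 in Asns. Slc7a11 held it as TGATGCAA at -66 and as TTGCATCA at -47, which do not overlap. The other 7 genes with a match were Gars, Herpud1, Aars, Pycr1, Iars, Pck2 and Tars. The windows of Atf5, Mthfd2, Phgdh and Atf4 held no match, which says only that these letters are not in them.

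Amino acid and one-carbon synthesis gave 11 falls among 17 genes tested and a median log2 difference of -0.92. Asns, which makes asparagine, had 223 and 310.5 in the doubles, against 1121, 1341 and 1638 in the Ptpmt1 knockouts, and fell by 2.36 ± 0.17 (SE) log2 units (adjusted p = 1.42e-05). The Hri knockouts had 226 and 308 and the controls 292 and 319.7. The doubles thus spanned the range of the Hri knockouts, at 19.5% of the mean of the Ptpmt1 knockout.

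The mitochondrial branch of folate metabolism fell at 3 of the enzymes listed. Shmt2, which splits serine in the mitochondrion, had 746 and 819.9 in the doubles, against 1425, 1494 and 1728 in the Ptpmt1 knockouts, and fell by 0.98 ± 0.09 (SE) log2 units (adjusted p = 6.24e-05). Mthfd2, which oxidizes the one-carbon unit, had 313 and 374 in the doubles, against 1005, 1229.9 and 1505 in the Ptpmt1 knockouts, and fell by 1.84 ± 0.16 (SE; adjusted p = 1.87e-05). Aldh1l2, which makes NADPH from 10-formyl-tetrahydrofolate, had 651 and 544 in the doubles, against 1469, 1633 and 1971 in the Ptpmt1 knockouts, and fell by 1.49 ± 0.14 (SE; adjusted p = 3.86e-05). Mthfd1l, which releases formate from the mitochondrion, had a log2 difference of -0.35 and was not called (adjusted p = 0.203). The cytosolic enzymes Shmt1 and Mthfd1 were not called either, with log2 differences of 0.23 and 0.15 (adjusted p = 0.581 and 0.702). No test of the difference between the branches was made.

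All 3 enzymes of serine synthesis fell. Phgdh, the first of them, had 579 and 740.0 in the doubles, against 1349, 1541 and 1792 in the Ptpmt1 knockouts, a fall of 1.24 ± 0.12 (SE) log2 units (adjusted p = 6.24e-05). Psat1 fell by 0.64 (adjusted p = 0.0139) and Psph, the last, by 0.92 (adjusted p = 0.0337). The proline enzymes Aldh18a1 and Pycr1 fell by 0.85 and 0.97 (adjusted p = 0.000117 and 0.0484), and the mitochondrial alanine aminotransferase Gpt2 fell by 1.06 (adjusted p = 0.00449). The calls of Pycr1 and Psph were the less stable, held in 7 and 10 of 20 alternatives; that of Pycr1 was lost without any 1 library other than replicate 1 of the Ptpmt1 knockout, and that of Psph without the first double, any 1 Ptpmt1 knockout or either control. Pck2, the mitochondrial phosphoenolpyruvate carboxykinase, had 489.6 and 455 in the doubles, against 749.9, 886 and 1005 in the Ptpmt1 knockouts, and fell by 0.89 (adjusted p = 0.005). Cth, which makes cysteine from cystathionine, had a log2 difference of -1.70 that was not called (adjusted p = 0.0779), on values of 17.3 and 30.5 in the doubles and 61.0, 74.5 and 100.04 in the Ptpmt1 knockouts.

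Amino acid transporters gave 5 falls among 10 tested, with a median log2 difference of -0.64. Slc7a3, a carrier of cationic amino acids, had 11.9 and 4.76 in the doubles, against 237, 311 and 377 in the Ptpmt1 knockouts, and fell by 5.14 ± 0.40 (SE) log2 units (adjusted p = 1.42e-05). Slc7a11, the light chain of the cystine and glutamate exchanger, had 16.2 and 1.90 in the doubles, against 92.2, 139 and 138 in the Ptpmt1 knockouts, and fell by 4.11 ± 0.64 (SE; adjusted p = 0.00836). These rest on few reads in the doubles, 11 and 5 for Slc7a3 and 15 and 2 for Slc7a11, and the Slc7a11 call was lost without the second double (log2 difference -2.82, adjusted p = 0.0554) or without replicate 2 of the Ptpmt1 knockout.

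Slc7a5 and Slc3a2 encode the light and heavy chains of the large neutral amino acid exchanger, and both fell. Slc7a5 had 532 and 534 in the doubles, against 1259, 1223 and 1622 in the Ptpmt1 knockouts, a fall of 1.35 ± 0.11 (SE) log2 units (adjusted p = 1.87e-05). Slc3a2, which also pairs with Slc7a11, had 631 and 733 in the doubles, against 1010.3, 1172 and 1318 in the Ptpmt1 knockouts, a fall of 0.77 (adjusted p = 0.00346). Slc7a1, another cationic carrier, fell by 0.51 (adjusted p = 0.0161). The sodium-coupled carriers Slc38a1 and Slc38a2 had log2 differences of -0.12 and 0.05 and were not called, and Slc1a4 had one of -0.97 with an adjusted p of 0.0779.

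Cytosolic tRNA synthetases, which load amino acids onto tRNA, gave 9 falls among 20 tested, with a median log2 difference of -0.38. Cars, for cysteine, had 362 and 391 in the doubles, against 720.0, 852 and 889 in the Ptpmt1 knockouts, a fall of 1.116 log2 units (adjusted p = 6.6e-05). The falls of Sars, Aars, Lars, Tars, Iars, Nars, Mars and Gars ran from 0.74 down to 0.49 log2 units, with adjusted p-values between 0.000248 and 0.0251. At the other end, Kars had 1603 and 1949 in the doubles, against 1745, 1693 and 1729 in the Ptpmt1 knockouts, and Rars, Dars, Qars and Hars had log2 differences between 0.09 and -0.01, none called. Xpot, which exports tRNA from the nucleus and was in no list, fell by 0.48 (adjusted p = 0.018).

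**Figure D3:**
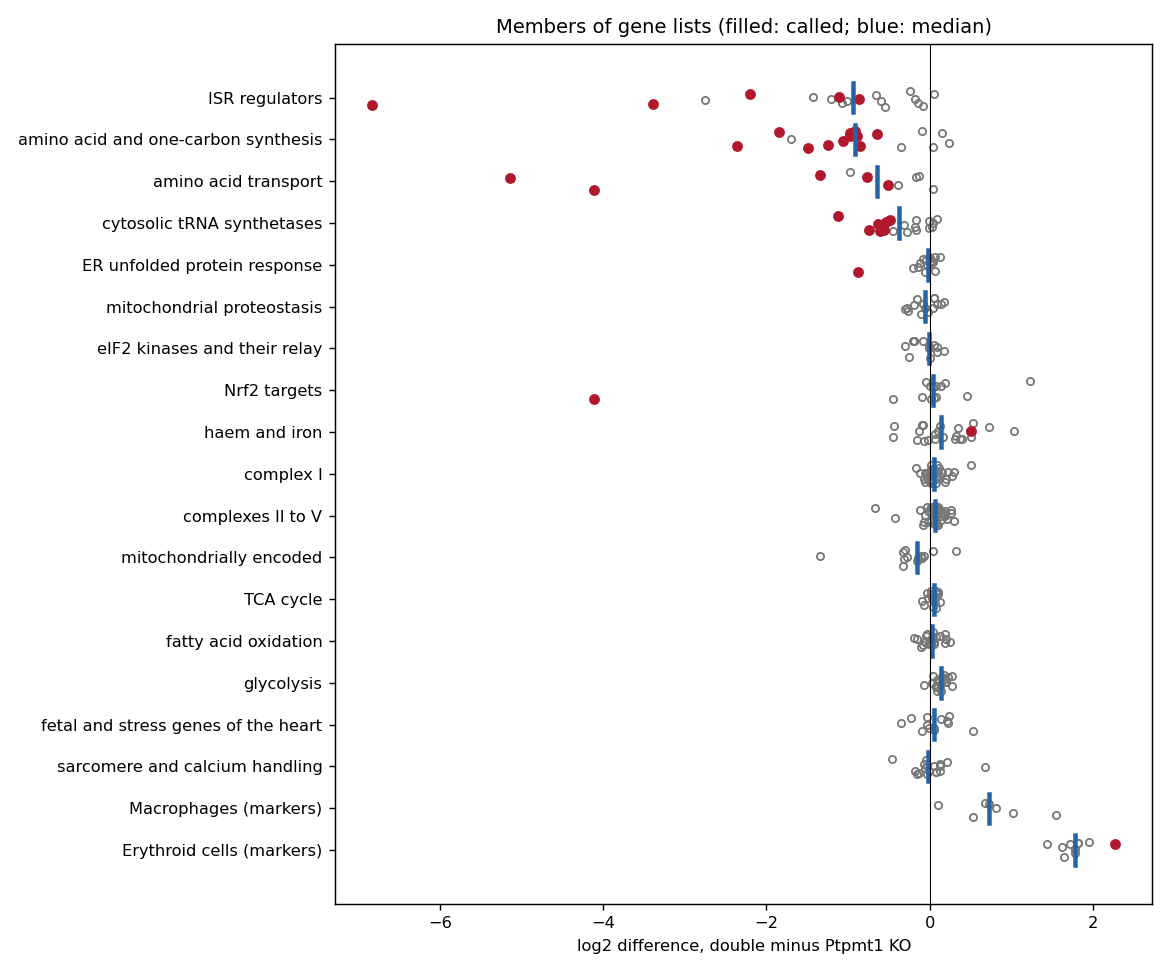
Log2 difference, double minus Ptpmt1 knockout, of each tested member of 19 gene lists; filled points were called and the blue bar is the median of the list. The 4 ISR lists at the top have medians from -0.94 to -0.38, while the lists of energy metabolism lie around 0 and the erythroid markers at 1.78.

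Outside the ISR lists 10 more genes fell. Cyb5r2, a cytochrome b5 reductase, had 2.16 and 2.86 in the doubles, against 79.7, 80.7 and 91.0 in the Ptpmt1 knockouts, a fall of 4.60 ± 0.47 (SE) log2 units (adjusted p = 9.69e-05). Trim66, a chromatin protein of the tripartite motif family, had 6.48 and 8.57 in the doubles, against 92.2, 105 and 110.0 in the Ptpmt1 knockouts, and fell by 3.61 (adjusted p = 0.00878). Its controls had 0 and 2.39, from 2 reads in all, so the ratio of double to control was 7.21 with an exact 95% counting interval of 1.68 to 65.0, and the limma difference from control was not called (adjusted p = 0.636). Bcat1, a cytosolic aminotransferase of branched-chain amino acids, had 177 and 202 in the doubles, against 554, 581 and 592 in the Ptpmt1 knockouts, a fall of 1.60 (adjusted p = 6.24e-05). Fam129a, also known as Niban, fell by 1.29, Rims3, a presynaptic protein, by 0.97, Clec16a, an endosomal protein with a role in mitophagy, by 0.55, and Herpud1, a component of ER-associated degradation, by 0.88.

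Extl1, a glycosyltransferase of the exostosin family, did not share the position near control. It had 42.2 and 32.4 in the doubles, against 153, 199.6 and 210.1 in the Ptpmt1 knockouts, a fall of 2.30 ± 0.21 (SE) log2 units (adjusted p = 3.41e-05). The Hri knockouts had 95.8 and 118 and the controls 132 and 129. The doubles were thus below every other library of the line, and the double minus control difference of -1.79 was called (95% interval -2.27 to -1.31, adjusted p = 0.0087). Mfsd7a, a transporter-like gene at low level, had 6.48 and 5.71 in the doubles, against 34.9, 36.9 and 24.0 in the Ptpmt1 knockouts and 21.7 and 31.0 in the controls; its fall of 2.19 (adjusted p = 0.0251) was called in 9 of 20 alternatives.

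Measured against control instead, the double differed at few genes. Only 4 of 14965 were called (0.0267%; 984 at an unadjusted p under 0.05), named here after their values were seen: Extl1 and Ptpmt1 were lower, and the predicted gene Gm9008 and the germ cell gene Rnf17 were higher. None of the 65 ISR genes was among them and their median log2 difference from control was -0.03. The doubles enter both comparisons, so the 2 sets of values are not independent. Both doubles had the male pattern and neither control did, so genotype and sex pattern cannot be told apart here. The count of 4 misses large differences: Ddx3y, at 872 and 765 in the doubles and 0 and 2.39 in the controls, was not called. It was 0 with the sex term, 9 without replicate 1 of the Ptpmt1 knockout and 12 with DESeq2 on recovered reads. The interval of the difference from control was -0.62 to 0.19 for Asns, -0.52 to 0.21 for Mthfd2, -0.26 to 0.30 for Phgdh and -0.51 to 0.02 for Slc7a5. For Shmt2 and Sesn2 the whole interval lay below 0, at -0.51 to -0.07 and -0.75 to -0.04, but neither was called (adjusted p = 0.699 and 0.743). These intervals are not adjusted for the number of genes, and with 2 libraries in each group they are wide. A gene not called is therefore not shown to equal control.

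**Figure D4:**
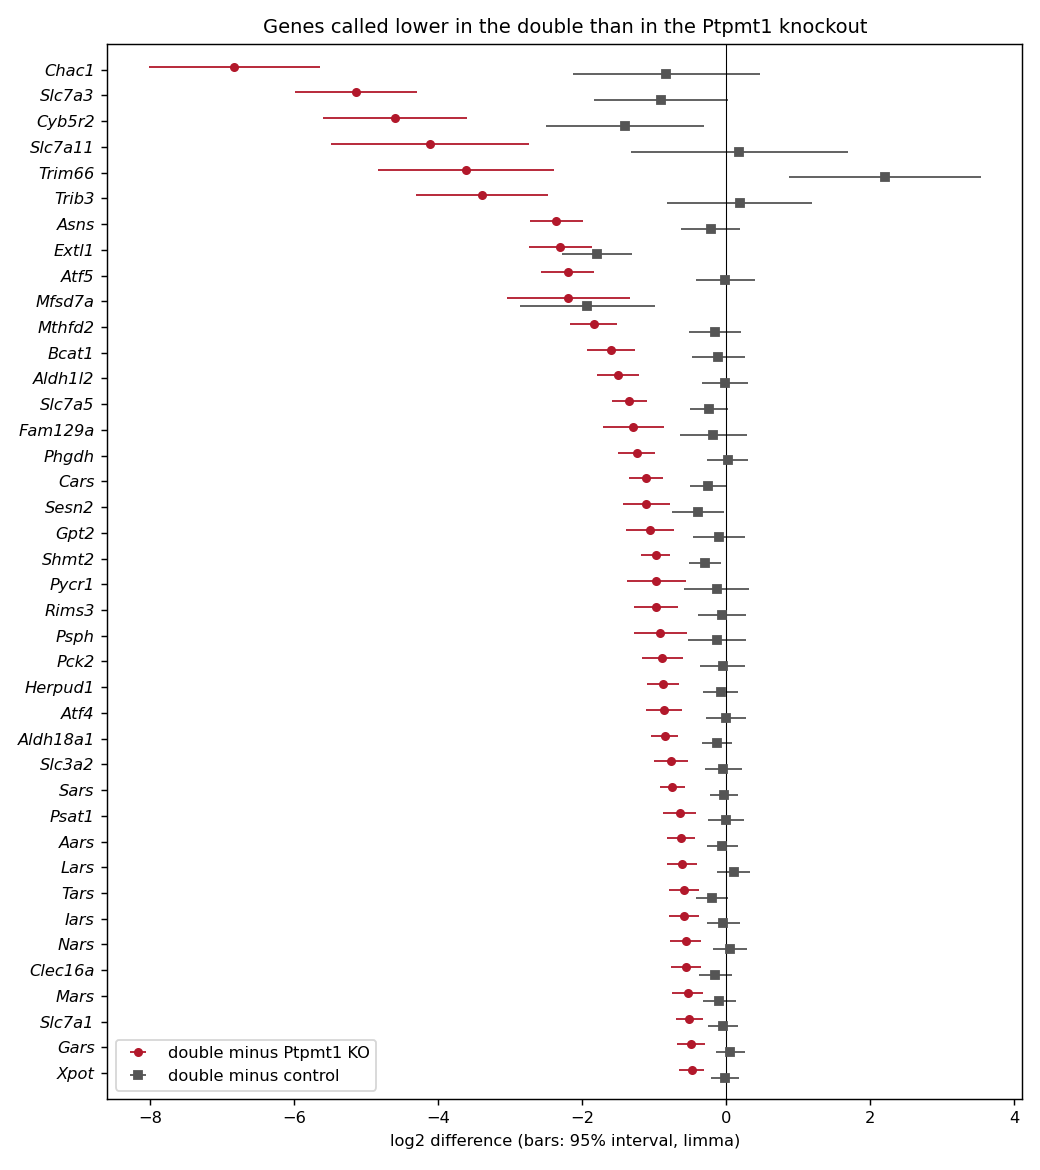
Log2 difference with its 95% limma interval for the 40 genes that fell, as double minus Ptpmt1 knockout (circles) and double minus control (squares). Both rows of points share the doubles; most squares lie near 0, whereas Extl1 lies at -1.79, Mfsd7a at -1.93 and Trim66 at 2.20.

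The difference between Hri genotypes depended on Ptpmt1 at 18 genes by the limma interaction (0.12% of those tested, and 694 at an unadjusted p under 0.05). The interaction sets double minus Ptpmt1 knockout against Hri knockout minus control. Both Hri knockouts had the male pattern and neither control did, so Hri genotype and sex pattern cannot be told apart in that second difference. In 17 the interaction was negative (0.114%). The count was 2 and 8 without the first and the second control, 9 without the second Hri knockout and 7 without replicate 2 of the Ptpmt1 knockout. The 6 with the smallest p were Chac1, Atf5, Asns, Mthfd2, Aldh1l2 and Slc7a5, all listed for the ISR. Not every negative interaction went with a called fall in the double. Rec8, Gstm6 and 2410018L13Rik had Hri knockout minus control log2 differences of 1.89, 4.39 and 3.09. Their double minus Ptpmt1 knockout differences were -0.25, -1.24 and -1.74, none called. For Asns the double differed from the Ptpmt1 knockout by -2.36 and the Hri knockout from control by -0.21, and the interaction was -2.14 (adjusted p = 0.00315). For Mthfd2 the same values were -1.84, 0.00 and -1.84 (adjusted p = 0.00407). Between Hri knockout and control 3 genes were called (0.02%; 485 at an unadjusted p under 0.05), and no ISR gene among them: Amph and Grhl1 were lower and the meiotic cohesin gene Rec8 was higher. For Atf4 the interaction was -0.87 but was not called (adjusted p = 0.0926).

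The sex pattern touches these results. Replicate 1 of the Ptpmt1 knockout, the one with the male pattern of the doubles, was the lowest of the 3 Ptpmt1 knockouts in 49 of the 65 tested ISR genes, and replicate 3 the highest in 45. Both doubles were below replicate 1 in 52 of the 65 and above it in 6, with a median log2 difference of -0.45 from it, where over all 14965 genes both were below it in 4595 and above it in 4428. Against replicates 2 and 3 singly the medians of the 65 were -0.64 and -0.76. With a term for the sex pattern in the fit, 29 genes were called, 17 of them shared with the 49, and 12 ISR genes fell. The sex term is set by the 3 Ptpmt1 knockouts, so it leaves replicate 1 as the one comparator of the doubles. Asns, Atf5, Mthfd2, Aldh1l2, Bcat1 and Slc7a5 were called in that fit and in all 20 alternatives tried, among them one with the male-pattern libraries alone. Atf4, with the sex term, had a log2 difference of -0.64 and was not called (adjusted p = 0.189), nor were Trib3 (-2.99, adjusted p = 0.0743) and Slc7a11 (-3.72, adjusted p = 0.302). Sesn2, Psat1, Psph, Pycr1, Gpt2, Pck2, Slc3a2, Slc7a1, Trim66, Fam129a, Mfsd7a, Clec16a, Xpot and the synthetase genes Aars, Lars, Tars, Iars, Nars, Mars and Gars were not called with it either.

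The 9 genes that rose included genes of red cells. Hbb-bs, an adult beta globin, had 651 and 1265 in the doubles, against 323, 199 and 101 in the Ptpmt1 knockouts, and rose by 2.28 ± 0.39 (SE) log2 units (adjusted p = 0.0158). Sptb, which encodes a protein of the red cell membrane skeleton, had 2022 and 2890.3 in the doubles, against 1507, 1419 and 1071 in the Ptpmt1 knockouts, and rose by 0.87 (adjusted p = 0.0249). Controls had 561 and 427 of Hbb-bs and 2558 and 1994 of Sptb. The double minus control log2 differences were 0.89 and 0.10, neither called. Tfrc, the transferrin receptor through which cells take up iron, had 2629.6 and 2812 in the doubles, against 1866, 2102 and 1776 in the Ptpmt1 knockouts, and rose by 0.51 (adjusted p = 0.041). Hri knockouts had 2506 and 2852 of Tfrc and controls 1827 and 2185.

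All 10 tested erythroid markers had both doubles above all 3 Ptpmt1 knockouts, where 11.9% of all genes did, with a median log2 difference of 1.78. Hbb-bs was the one called. Against control the median log2 difference of the 10 was 0.62 for the doubles and -1.11 for the Ptpmt1 knockouts. Alas2, the red cell enzyme that starts haem synthesis, had 785 and 1299.9 in the doubles, against 442, 436 and 90.0 in the Ptpmt1 knockouts, and a log2 difference of 1.96 (adjusted p = 0.157). Hbb-y, an embryonic beta globin, had 33718 and 58146 in the doubles and 21316, 19437 and 4801 in the Ptpmt1 knockouts. Replicate 3 of the Ptpmt1 knockout was the lowest library for all 10, and the median difference was 0.94 against replicate 1 alone and 3.15 against replicate 3. In bulk RNA, fewer cells of a type and less RNA per cell cannot be told apart. Macrophage markers were positive in 7 of 7 tested, with a median log2 difference of 0.73 and no call, on a summed share of 0.00444% and 0.00935% in the doubles, against 0.00345%, 0.00374% and 0.00490% in the Ptpmt1 knockouts. The summed share of the erythroid markers, 0.5004% and 0.890% against 0.347%, 0.321% and 0.0727%, includes Hbb-bs itself. Within each group Sptb had the same order as this share, while Tfrc had it within the doubles but in no other group. Orders of 2 or 3 libraries cannot decide what part the share had. The Hri knockouts had shares of 0.586% and 0.423% with Tfrc at 2506 and 2852. The controls had shares of 0.479% and 0.403% with Tfrc at 1827 and 2185. The part of erythroid cells or macrophages in the rises was not tested.

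Ctse, the aspartic protease cathepsin E, gave the largest rise, with 84.3 and 186 in the doubles, against 1.25, 2.05 and 0 in the Ptpmt1 knockouts (log2 difference 6.05 ± 1.06 SE, adjusted p = 0.0187). The Ptpmt1 knockouts held 4 reads in all and the doubles 273, a ratio of 113 with an exact 95% counting interval of 43.6 to 417. Replicates of the other groups also differed among themselves, at 5.04 and 63.1 in the Hri knockouts and 1.88 and 42.9 in the controls. Zfp97, a zinc finger gene, had 28.1 and 42.9 in the doubles, against 6.23, 6.84 and 3.001 in the Ptpmt1 knockouts and 32.0 and 27.4 in the controls. The kinases Sgk3 and Pim1 and the tubulin Tuba1c rose by 0.80, 0.63 and 0.74 (adjusted p = 0.0249, 0.0456 and 0.0341). Pim1 was called in 9 of 20 alternatives, and Zfp97 and Tuba1c in 10 each. None of the 9 rises was called with the sex term. The number of rises was 2 without the second double or without either control, 4 without replicate 2 of the Ptpmt1 knockout, 19 and 21 without its replicates 1 and 3, and 32 without the first double.

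Since Hri answers to haem in red cell precursors, 24 genes of haem and iron were listed. Of these 1 was called, Tfrc, beside 0.327% of all genes tested. The call of Tfrc held in 12 of 20 alternatives and was lost without either double and with the sex term. The mitochondrial iron importer Slc25a37 had 2301 and 3315 in the doubles, against 1685, 1592 and 913 in the Ptpmt1 knockouts (log2 difference 1.03, adjusted p = 0.0779). The iron exporter Slc40a1 and the ferritin gene Fth1 had log2 differences of 0.73 and 0.51 and were not called. The median of the list was 0.15.

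Energy metabolism and the contractile genes gave no call. None of 37 complex I genes, 42 genes of complexes II to V, 13 mitochondrially encoded genes, 18 genes of the TCA cycle, 21 of fatty acid oxidation, 20 of glycolysis, 18 of the sarcomere and calcium handling or 13 fetal and stress genes of the heart passed the test, with list medians between -0.15 and 0.14. Cox6a2, a cytochrome oxidase subunit of heart and skeletal muscle, had 303 and 432 in the doubles, against 584, 533 and 612 in the Ptpmt1 knockouts and 262 and 223 in the controls (log2 difference -0.67, adjusted p = 0.0779). Mitochondrially encoded transcripts took 1.56% and 1.61% of the doubles' counts, against 1.82%, 1.76% and 1.87% in the Ptpmt1 knockouts, an exact permutation p of 0.1. Of 16 genes of the ER unfolded protein response 1 was called, Herpud1, and of 15 genes of mitochondrial proteostasis none, beside 0.327% of all genes. Among 14 Nrf2 targets Slc7a11 was the one call, while Nqo1 (1.23) and Gclm (0.45), which respond to oxidants, had positive log2 differences that were not called.

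A second line, called FST, gave a set of genes chosen from its own libraries, without the PHT values. The set shares many genes with the ISR lists, so it is not independent of them. The sex pattern of the FST libraries is not given here. In the FST line Ptpmt1 loss in cardiomyocytes was combined with an Eif2a mutation in place of Hri loss. Double, Ptpmt1 knockout, Eif2a mutant and control had 3 libraries each. Limma called 45 genes higher in the FST Ptpmt1 knockout than in FST control (0.324% of 13896). In the PHT line these 45 had a median log2 difference of -0.64 for double minus Ptpmt1 knockout; 40 were negative, 27 fell and none rose, beside a background of 0.267% of genes falling. The 20 of them in no ISR list had a median of -0.24, and 5 fell: Cyb5r2, Trim66, Bcat1, Fam129a and Xpot. Those near 0 included Enc1 (0.09), Ro60 (0.04) and Socs2 (-0.04), and Gria3 had the highest value of the 45, at 0.27, which was not called (adjusted p = 0.543).

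**Figure D5:**
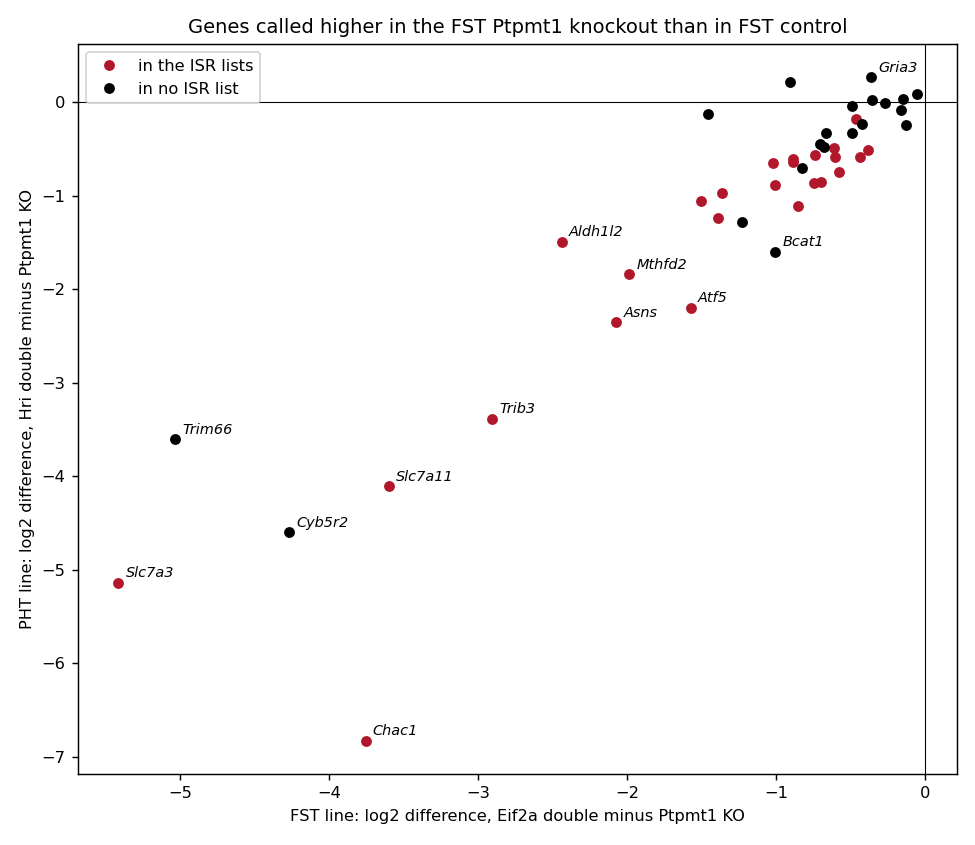
Each point is one of the 45 genes called higher in the FST Ptpmt1 knockout than in FST control; the horizontal axis is the log2 difference Ptpmt1 Eif2a double minus Ptpmt1 knockout in FST, the vertical axis Ptpmt1 Hri double minus Ptpmt1 knockout in PHT. The FST Ptpmt1 knockouts also chose the genes, so the horizontal values are pulled below 0 by that choice; the vertical values are from other animals and 40 of 45 are negative.

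The reverse look gave a like picture for the falls but not for the rises. Of the 40 genes that fell in the PHT double, 39 had a negative log2 difference between the FST double and the FST Ptpmt1 knockout, with a median of -0.89, and 26 were called lower there, beside 0.432% of all FST genes. Asns had log2 differences of -2.36 in PHT and -2.07 in FST, Trib3 -3.39 and -2.91, and Slc7a3 -5.14 and -5.42. Shmt2 had -0.98 in PHT and -0.35 in FST, where it was not called (adjusted p = 0.395), and Extl1 -2.30 and -1.29 (adjusted p in FST 0.0335). The exception in sign was Mfsd7a, at 0.28 in FST. Of the 9 genes that rose in PHT, 5 were negative in FST, among them Hbb-bs (-1.98, adjusted p = 0.417), and Sptb was called lower there (-0.59, adjusted p = 0.0488). Differences between the lines were not tested. Over all 13873 genes tested in both lines the 2 sets of log2 differences gave a Pearson r of 0.02 and a Spearman rho of -0.05, a description across genes, each axis resting on libraries of its own line.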

How the data were processed

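RNA sequencing of the 9 PHT and 12 FST libraries was used; the other 2 lines were not analysed here. The authors deposited one normalized signal table per line; the submitters' processing notes name STAR 2.5.3a, DESeq2 1.12.4 and mm10, without their roles. Dividing each library's values by the value of 1 read gave whole numbers, within 0.1, for 100% of values. The sources used here do not give the read counter or its use of strand, so overlapping genes cannot be told apart.

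Log2(value + 1) of genes reaching 10 in at least 2 of 9 libraries (FST: 3 of 12) was fitted with limma 3.58.1 in R 4.3.3 (trend, 4 groups in 1 fit, two-sided, Benjamini-Hochberg, threshold 0.05). As alternatives, edgeR 4.0.16 and DESeq2 1.42.0 were run on the recovered reads, and other pseudocounts, filters, scalings, a sex term and leaving out each library were tried. The code was tested on simulated data. Replicates differed by more than sampling noise (chi-square per degree of freedom 5.39 to 13.2), so none was counted as a duplicate. The labels do not say that replicates are separate animals, and p-values measure the spread between these samples. Named genes were the targeted genes, 16 panel genes, the 12 largest called changes each way among genes with a mean of at least 50, the 6 smallest interaction p and up to 4 list members by p; genes outside this rule were named after their values were seen. Members and lists were chosen with earlier results of these data known. Counting intervals cover counting error only. Promoters are from RefSeq, GRCm38.p6; 34 of the 40 genes that fell and 6 of the 9 that rose had a promoter window. Date-like symbols (26) stand as deposited. One of the genes that rose is not reported here by name.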

Additional observations from a re-analysis of the deposited data

Results flagged for a closer look

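In 15 named genes the difference between Hri genotypes depended on Ptpmt1, by the limma interaction with Benjamini-Hochberg adjustment over all genes. Sex pattern is unbalanced in both differences that the interaction compares, and its part was not tested. The interaction, on the log2 scale, was -8.71 for Chac1 (adjusted p = 0.00049), -4.11 for Slc7a3 (0.0103), -4.03 for Cyb5r2 (0.0378) and -2.31 for Atf5 (0.00186). It was -2.14 for Asns (0.00315), -2.01 for Extl1 (0.0141), -1.84 for Mthfd2 (0.00407) and -1.58 for Aldh1l2 (0.0043). It was -1.53 for Bcat1 (0.0141), -1.25 for Slc7a5 (0.006), -1.18 for Phgdh (0.0141) and -0.99 for Shmt2 (0.0098). It was -0.87 for Herpud1 (0.0495) and -0.71 for Sars (0.0378). It was -2.14 for Rec8 (0.0201), where the doubles, at 184 and 104, overlapped the Ptpmt1 knockouts, at 131, 179.8 and 190.1, and the Hri knockout was the group called against control. The value of Chac1 includes a Hri knockout minus control difference of 1.88 that was not called (adjusted p = 1) and rests on 8 and 9 reads in the Hri knockouts and 1 and 2 in the controls.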

How the results depend on the processing

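Against 49 genes called, 9 higher and 40 lower in the double, the sex term gave 29 (4 higher, 25 lower), the male-pattern libraries alone, chosen after seeing the data, gave 13 (2 and 11), and DESeq2 on recovered reads gave 105 (41 and 64). A fit of the double and Ptpmt1 knockout alone gave 32 with 2 higher, and no filter gave 5 higher. Leaving out 1 library at a time gave 29 to 91 genes, 2 to 32 higher and 25 to 59 lower. The interaction count of 18 was 38 with DESeq2 and 2 to 22 with 1 library left out. The ISR median of -0.59 was -0.45 with the sex term and with the male-pattern libraries alone, and -0.68 to -0.55 with 1 library left out. The median of the genes higher in the FST Ptpmt1 knockout, -0.64, was -0.46 in both and -0.76 to -0.58 with 1 library left out. The causes were not tested, apart from the fewer libraries that some settings hold. Counts under pseudocounts of 0.5 and 5, a filter of 50, TMM scaling, the robust prior and edgeR (52 genes, 12 higher) stayed within 1.5 times. No called value of a named gene changed sign in any alternative tried.

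No paired analysis was possible because the labels give these groups no shared replicate numbers. With 1 library left in a group, that library is assumed to vary like the others. Genes of few reads in one group, such as Chac1 and Ctse, carry wide intervals, and 2 against 3 libraries limit every count here; outside the Ptpmt1 knockout every group holds a single sex pattern, so sex and group cannot be told apart there.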

Other observations

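A few genes outside the stress response were called between 1 mutant group of the PHT line and its controls; they were named after their values were seen. Rnf17, a gene of the germ line, had 134 and 186 in the doubles, 97.2, 84.1 and 79.0 in the Ptpmt1 knockouts, 68.1 and 46.7 in the Hri knockouts and 47.1 and 29.8 in the controls, and was called higher in the double than in control. Rec8, a meiotic cohesin, had 184 and 104 in the doubles, 131, 179.8 and 190.1 in the Ptpmt1 knockouts, 424 and 328 in the Hri knockouts and 104 and 96.6 in the controls. Its largest values were in the Hri knockouts, where it was called higher than in control. Grhl1, a transcription factor of epithelia, had 392 and 320.0 in the doubles, 446, 403 and 302 in the Ptpmt1 knockouts, 224 and 216 in the Hri knockouts and 457 and 561 in the controls, and was called lower in the Hri knockout than in control. For Grhl1 both doubles lay above both Hri knockouts. For Rec8 and Grhl1 the double differed from the Ptpmt1 knockout by -0.25 and -0.10 log2 units, neither called, and neither the double nor the Ptpmt1 knockout was called against control.

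Of 20 genes of the cell cycle 18 had a positive log2 difference, double minus Ptpmt1 knockout, with a median of 0.09 and no call. Over all genes tested 7286 of 14965 were positive. The tilt was not particular to this list, as 19 of 20 glycolysis genes, 29 of 37 of complex I and 33 of 42 of complexes II to V were positive. Of 13 mitochondrially encoded genes 2 were. Mki67, a marker of dividing cells, had 8667 and 10604 in the doubles, against 7479, 7841 and 6959 in the Ptpmt1 knockouts (log2 difference 0.37, adjusted p = 0.209 by limma).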
